A study of Mus musculus with 9 samples.

Results

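The miR-200 family consists of 5 small RNAs cut from the 3′ arms of 5 precursor hairpins: miR-200a-3p, miR-200b-3p, miR-429-3p, miR-200c-3p and miR-141-3p. They were taken by name from a table of 1064 known mouse microRNAs, and all 5 were listed there. The table holds small RNA sequencing of 9 libraries, each from small extracellular vesicles that circulate in mouse serum. HFD Sirt3 AKI stands for 3 libraries of mice fed a high fat diet with Sirt3 overexpressed in adipose tissue. HFD WT stands for 3 libraries of wild-type mice on the same diet, and chow WT for 3 libraries of wild-type mice on chow. Sirt3 encodes a mitochondrial deacetylase, and small RNA sequencing does not measure its transcript, so the overexpression was not checked here. The labels give neither the promoter behind the overexpression nor the age, the sex or the number of animals behind a library. The library names of HFD WT hold the code SIRT3CKI, those of HFD Sirt3 AKI hold SIRT3CKIcr and those of chow WT hold WT. A difference between HFD WT and chow WT is therefore read below as one between these labelled groups, since the diet and any difference of mouse line cannot be told apart.

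MicroRNAs guide Argonaute proteins to messenger RNAs through their seed, the bases near the 5′ end that pair with the target. The miR-200 family is abundant in epithelial tissues, where it represses Zeb1 and Zeb2, transcription factors that drive the epithelial-to-mesenchymal transition, and Zeb1 and Zeb2 in turn repress both loci of the family. In mouse pancreatic beta cells the family is also known to promote apoptosis under stress. MicroRNAs in serum vesicles come from many tissues, and a level there does not name the tissue.

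The family divides by genome and by seed, and the divisions cross. On mouse chromosome 4 (build GRCm38, minus strand), Mir200b at chr4:156055681-156055750, Mir200a at chr4:156054896-156054985 and Mir429 at chr4:156053905-156053987 lie in that order within 1846 bases. All 3 hairpins sit in introns of Ttll10 on the same strand, and Mir429 also lies in an exon of the noncoding gene Gm13648. On chromosome 6, also on the minus strand, Mir200c at chr6:124718322-124718390 and Mir141 at chr6:124717914-124717985 lie within 477 bases. Both sit in introns of the noncoding gene Gm15884, and Mir141 also overlaps part of an exon of Gm29008.

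The mature sequences from RefSeq (GRCm38.p6) are shown because the results turn on which members share a seed and which share a locus. Capitals mark the seed, bases 2 to 8 counted from the 5′ end. The first 3 share one seed and the last 2 share the other.
mmu-miR-200b-3p: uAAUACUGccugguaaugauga
mmu-miR-429-3p: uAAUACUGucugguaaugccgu
mmu-miR-200c-3p: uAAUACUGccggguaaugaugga
mmu-miR-200a-3p: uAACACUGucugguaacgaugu
mmu-miR-141-3p: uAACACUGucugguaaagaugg

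The seeds differ by 1 base, C4U from miR-200a-3p to miR-200b-3p, with positions counted from 1 at the 5′ end. No other of the 1679 mature mouse microRNAs in the RefSeq table carried either seed. Each seed occurs at both loci: miR-200b-3p and miR-429-3p on chromosome 4 share theirs with miR-200c-3p on chromosome 6, and miR-200a-3p shares its own with miR-141-3p. Over 22 bases miR-200b-3p and miR-200c-3p differ by 2, U11G and A22G, and miR-141-3p and miR-200a-3p differ by 2, A17C and G22U. No member had the same counts as any other microRNA in all 9 libraries. How many mismatches the counting allowed is not given in the sources used here, so some reads of such close relatives may have been shared.

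The libraries differed in depth. Counts assigned to microRNAs totalled 1729416 to 2973432 per library in HFD Sirt3 AKI, 1953935 to 2162009 in HFD WT and 225002 to 306974 in chow WT. Each member had at least 25 counts in every library. Levels are normalised CPM, a microRNA's count relative to the library total after scaling by edgeR's trimmed mean of M values, and are given with the SD over 3 libraries. A microRNA was called changed when edgeR's quasi-likelihood test, with Benjamini-Hochberg adjustment over the 414 microRNAs tested, gave an adjusted p below 0.05. The labels do not say whether libraries came from separate animals, so p-values measure the spread between these samples, which may be technical. In a vesicle preparation, fewer vesicles from a source and less RNA in each vesicle cannot be told apart. Markers of red blood cells, a list of 7 that includes miR-451a and miR-486a-5p, took 33.3 to 41.7% of the counts in HFD Sirt3 AKI, 40.5 to 42.9% in HFD WT and 30.9 to 32.6% in chow WT. The list leaves out miR-486b-5p, which is in the totals.

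As a whole the family made up 0.188% ± 0.119 of counts in HFD Sirt3 AKI, 0.0822% ± 0.00269 in HFD WT and 1.17% ± 0.0434 in chow WT (SD, n = 3 each). The summed levels were 1168, 2967 and 1443 CPM in the HFD Sirt3 AKI libraries, 969, 1066 and 1106 CPM in HFD WT, and 8804, 9263 and 8727 CPM in chow WT. The 3 groups did not overlap in this sum, with HFD WT lowest and chow WT far above both. No p-value is given for sums of the members.

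miR-429-3p, the member nearest the 3′ end of the chromosome 4 cluster, showed the widest gap of the family. It stood at 176, 312 and 189 CPM in HFD Sirt3 AKI, at 152, 167 and 145 CPM in HFD WT, and at 4366, 4783 and 4389 CPM in chow WT. Every chow WT library was far above the other 6. By mean level miR-429-3p ranked 126 of the 414 tested microRNAs in HFD Sirt3 AKI, 142 in HFD WT and 30 in chow WT.

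miR-200a-3p, the member of that cluster with the other seed, was the most abundant family member in both high fat diet groups. Its levels were 462, 1735 and 623 CPM in HFD Sirt3 AKI, 390.3, 413 and 458 CPM in HFD WT, and 3158, 2978 and 3006 CPM in chow WT. The libraries of HFD WT and of chow WT lay close together within their groups, while replicate 2 of HFD Sirt3 AKI stood well above the other 2. Even that library remained below all 3 of chow WT.

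miR-200b-3p, the first hairpin of the chromosome 4 cluster, reached 248, 385 and 286 CPM in HFD Sirt3 AKI, 188, 221 and 238 CPM in HFD WT, and 884, 1111 and 929 CPM in chow WT. Its order of groups was the same as for miR-429-3p and miR-200a-3p, without overlap.

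The chromosome 6 members lay closer to chow WT. miR-200c-3p was present at 234, 268 and 254 CPM in HFD Sirt3 AKI, 192, 219 and 199 CPM in HFD WT, and 293, 299.9 and 321 CPM in chow WT. Its 3 groups did not overlap, and its gap to chow WT was small beside those of the chromosome 4 members. miR-141-3p, the least abundant member, was at 48.6, 266 and 90.5 CPM in HFD Sirt3 AKI, 46.7, 45.6 and 66.3 CPM in HFD WT, and 102, 91.3 and 83.5 CPM in chow WT. Its HFD Sirt3 AKI libraries ran from within the range of HFD WT to above all of chow WT.

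**Figure D1:**
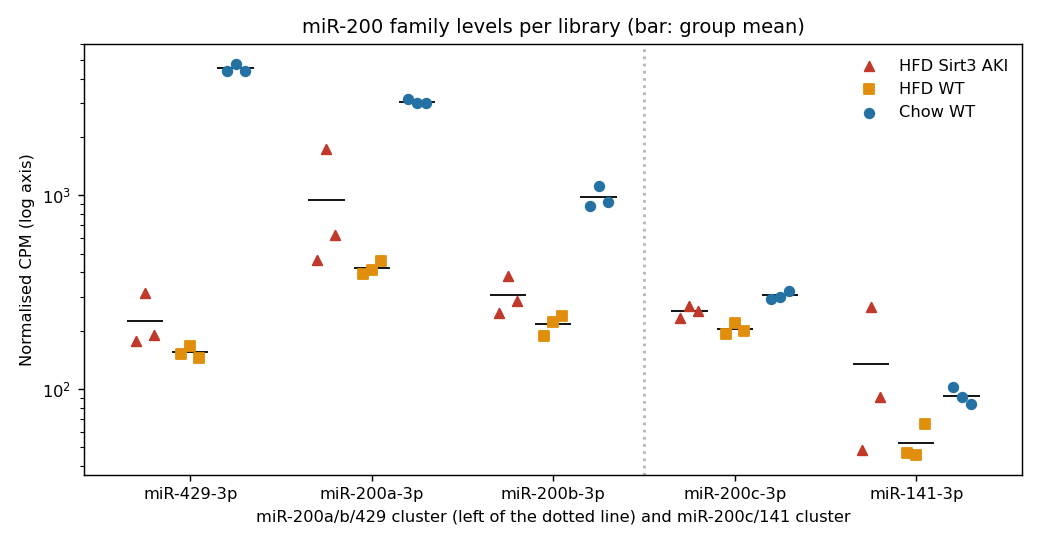
Level of each family member in every library, as normalised CPM on a log axis, with a bar at each group mean (3 libraries per group). The 3 members of the chromosome 4 cluster, left of the dotted line, show the chow WT libraries above the 6 others, with the widest gap for miR-429-3p, at a mean of 226 CPM in HFD Sirt3 AKI, 155 CPM in HFD WT and 4513 CPM in chow WT.

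The first comparison asks how the family differed between wild-type mice given high fat food and wild-type mice given chow. The family was lower in HFD WT: 4 of 5 members fell, while 16.2% of all tested microRNAs fell, 21.5% rose and 37.7% changed in either direction. All 5 members had every HFD WT library below every chow WT library, a pattern that 23.9% of tested microRNAs shared. miR-429-3p averaged 155 ± 11.6 CPM in HFD WT and 4513 ± 234 CPM in chow WT, so chow WT was 29.2-fold higher. Its log2 fold change of -4.87 (SE 0.23) had the smallest p of the 414 microRNAs in edgeR's quasi-likelihood test (adjusted p = 1.80e-07), and it ranked 13 from the lowest log2 fold change.

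The neighbours of miR-429-3p followed at smaller size. miR-200a-3p averaged 421 ± 34.7 CPM in HFD WT and 3047 ± 96.8 CPM in chow WT (log2 fold change -2.86 with SE 0.41, adjusted p = 2.54e-04 by edgeR). miR-200b-3p averaged 216 ± 25 CPM in HFD WT and 975 ± 120 CPM in chow WT (log2 fold change -2.18 with SE 0.19, adjusted p = 9.37e-06 by edgeR). On chromosome 6 the change of miR-200c-3p was far smaller. It averaged 203 ± 14.0 CPM in HFD WT and 305 ± 14.3 CPM in chow WT (log2 fold change -0.58 with SE 0.14, adjusted p = 0.00692 by edgeR). The call of miR-200c-3p was lost when no low-count filter was applied, where the log2 fold change was -0.37 (adjusted p = 0.393). miR-141-3p did not pass, at 52.9 ± 11.7 CPM in HFD WT and 92.2 ± 9.27 CPM in chow WT (log2 fold change -0.81 with SE 0.53, adjusted p = 0.265 by edgeR). It did pass without replicate 2 of HFD Sirt3 AKI, a library outside this comparison that adds to the shared estimate of spread, at a log2 fold change of -0.69 (adjusted p = 0.0466). It also passed with only the libraries of HFD WT and chow WT (-0.88, adjusted p = 0.00411), within the larger batch (-0.75, adjusted p = 0.0119) and with limma on TPM (-1.53, adjusted p = 0.0479).

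The median log2 fold change was -2.18 over the 5 members and 0.15 over all tested microRNAs. The scaling matters for the smaller values: by library totals the median of all microRNAs moved by -0.72, and the members lay at -5.60 for miR-429-3p, -3.59 for miR-200a-3p, -2.91 for miR-200b-3p, -1.32 for miR-200c-3p and -1.54 for miR-141-3p. All 5 stayed negative under both scalings.

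**Figure D2:**
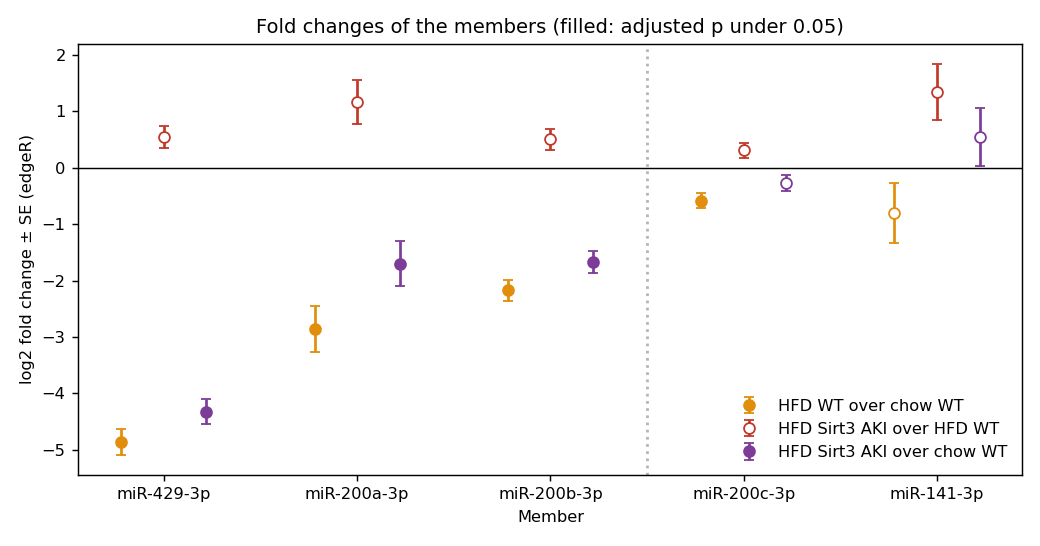
Log2 fold change of each member in the 3 comparisons, with the SE from edgeR as bars and filled points where the adjusted p was below 0.05. Both comparisons with chow WT give filled points between -4.87 and -1.67 for the chromosome 4 members left of the dotted line, whereas the chromosome 6 members lie between -0.81 and 0.54 there.

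The 2 genomic clusters were then set against each other inside each library, where a ratio of counts does not depend on depth or scaling. The chromosome 4 cluster held 3.14, 4.56 and 3.18 counts per count of the chromosome 6 cluster in HFD Sirt3 AKI, 3.06, 3.03 and 3.17 in HFD WT, and 21.3, 22.7 and 20.6 in chow WT. As a share of the family's counts it took 78.0% ± 3.48 in HFD Sirt3 AKI, 75.5% ± 0.422 in HFD WT and 95.6% ± 0.207 in chow WT. In CPM the chromosome 4 cluster summed to 1472 ± 838 in HFD Sirt3 AKI, 791 ± 55.8 in HFD WT and 8535 ± 295 in chow WT. The chromosome 6 cluster summed to 387 ± 131 CPM in HFD Sirt3 AKI, 256 ± 15.2 CPM in HFD WT and 397 ± 6.64 CPM in chow WT. Here HFD Sirt3 AKI and chow WT had similar means, but not similar libraries. The sums were 282, 534 and 345 CPM in HFD Sirt3 AKI, and 395, 391 and 404 CPM in chow WT. Replicates 1 and 3 of HFD Sirt3 AKI lay below every chow WT library, and replicate 2 lay above them all.

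The seed classes separated the groups less. Members with the AAUACUG seed took 46.5% ± 12.4 of the family's counts in HFD Sirt3 AKI, 54.8% ± 2.22 in HFD WT and 64.8% ± 1.96 in chow WT. Members with the AACACUG seed took the rest, 53.5% ± 12.4 in HFD Sirt3 AKI, 45.2% ± 2.22 in HFD WT and 35.2% ± 1.96 in chow WT. Counts of the first class per count of the second were 1.29, 0.482 and 1.02 in HFD Sirt3 AKI, 1.22, 1.32 and 1.11 in HFD WT, and 1.70, 2.02 and 1.82 in chow WT. One library of HFD Sirt3 AKI, replicate 2, was the only one of the 9 in which the AACACUG class held the larger part, at 67.5%.

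**Figure D3:**
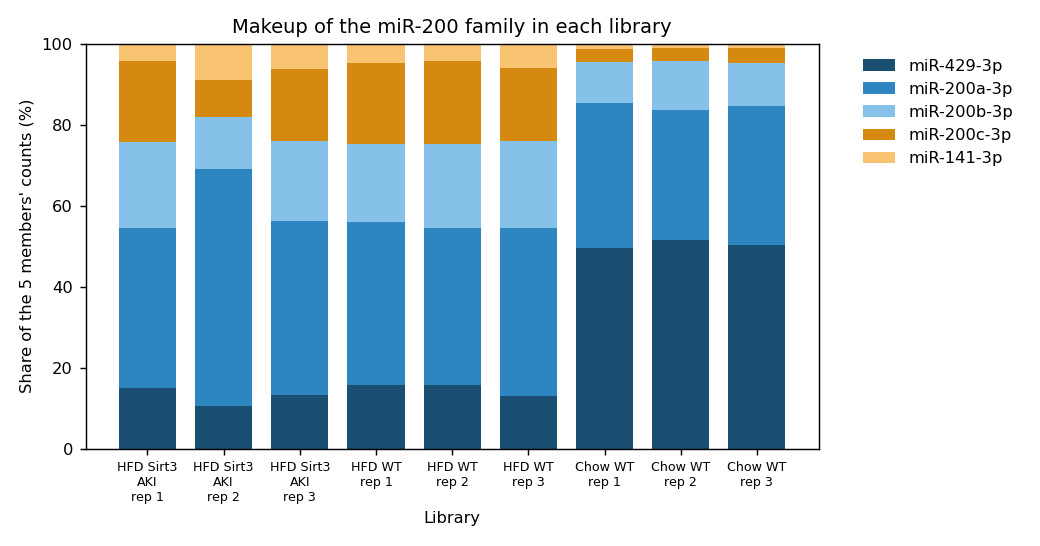
Share of the family's counts taken by each member in every library, as a percent of the 5 members' counts, with blue shades for the chromosome 4 cluster and orange shades for the chromosome 6 cluster. The orange part is narrow in chow WT, where the chromosome 6 cluster averaged 4.45% of the family, and the miR-429-3p part at the bottom takes 49.6 to 51.6%.

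Single pairs of members carried the comparison of clusters and seeds to a test. A total of 6 pairs were compared by the log2 ratio of their counts plus 0.5 within each library, with an exact permutation test over the 3 groups (9 libraries; smallest possible p 0.00357) and Benjamini-Hochberg adjustment over the 6 pairs. Of 3 pairs that share a seed but lie on different chromosomes, all 3 passed. There were 1.06, 1.44 and 1.13 counts of miR-200b-3p per count of miR-200c-3p in HFD Sirt3 AKI, 0.983, 1.01 and 1.19 in HFD WT, and 3.01, 3.69 and 2.89 in chow WT. The chow WT libraries were all higher, and the test over the 3 groups gave exact p = 0.0143 (adjusted p = 0.0482). For miR-200a-3p over miR-141-3p the log2 ratio averaged 2.91 ± 0.29 in HFD Sirt3 AKI, 3.00 ± 0.20 in HFD WT and 5.03 ± 0.10 in chow WT (SD, n = 3 each; exact p = 0.025, adjusted p = 0.0482). For miR-429-3p over miR-200c-3p it averaged -0.20 ± 0.37 in HFD Sirt3 AKI, -0.39 ± 0.062 in HFD WT and 3.88 ± 0.11 in chow WT (exact p = 0.025, adjusted p = 0.0482). These p-values are over all 3 groups and do not measure the gap to chow WT alone. An exact test of HFD WT against chow WT alone gave p = 0.1 for each of these 3 pairs. This is the smallest p that 3 libraries against 3 can give. Within the larger batch of 7 libraries only 1 library of HFD Sirt3 AKI is left, and the libraries of HFD WT and chow WT are the same. An exact p there depends on where that 1 library falls. It therefore cannot decide on the gap to chow WT, and these calls were not checked within 1 batch.

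Pairs within a cluster but with different seeds did not pass over the 3 groups. For miR-200a-3p over miR-200b-3p, however, every HFD WT library lay below every chow WT library (difference -0.68), as in the 3 pairs across chromosomes. The log2 ratio of miR-200a-3p to miR-200b-3p averaged 1.40 ± 0.68 in HFD Sirt3 AKI, 0.96 ± 0.077 in HFD WT and 1.65 ± 0.21 in chow WT (exact p = 0.175, adjusted p = 0.21), and that of miR-141-3p to miR-200c-3p averaged -1.25 ± 1.14 in HFD Sirt3 AKI, -1.96 ± 0.34 in HFD WT and -1.71 ± 0.20 in chow WT (exact p = 0.546, adjusted p = 0.546). Replicate 2 of HFD Sirt3 AKI widened both spreads, and without it the exact p of the miR-200a-3p to miR-200b-3p ratio was 0.025, before adjustment over the pairs. Without replicate 1 of HFD Sirt3 AKI the exact p of the miR-141-3p to miR-200c-3p ratio was also 0.025. These pairs are therefore not shown to be alike between the groups.

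The last pair, miR-429-3p and miR-200b-3p, shares both its cluster and its seed, and it passed as well. The log2 ratio of miR-429-3p to miR-200b-3p averaged -0.46 ± 0.15 in HFD Sirt3 AKI, -0.48 ± 0.21 in HFD WT and 2.22 ± 0.10 in chow WT (exact p = 0.0321, adjusted p = 0.0482). An exact test of HFD WT against chow WT alone again gave p = 0.1. For this pair too, the larger batch cannot decide on the gap to chow WT. In counts this was 0.711, 0.809 and 0.662 of miR-429-3p per count of miR-200b-3p in HFD Sirt3 AKI, 0.806, 0.756 and 0.609 in HFD WT, and 4.93, 4.30 and 4.72 in chow WT. miR-429-3p was thus the scarcer of the pair in all 6 libraries of the high fat diet and the more abundant in all 3 of chow. HFD WT minus chow WT was -2.69 on the log2 scale, beside -0.68 for miR-200a-3p over miR-200b-3p. None of the 6 ratios separated HFD Sirt3 AKI from HFD WT without overlap, and 3 libraries against 3 cannot give an exact p below 0.1.

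**Figure D4:**
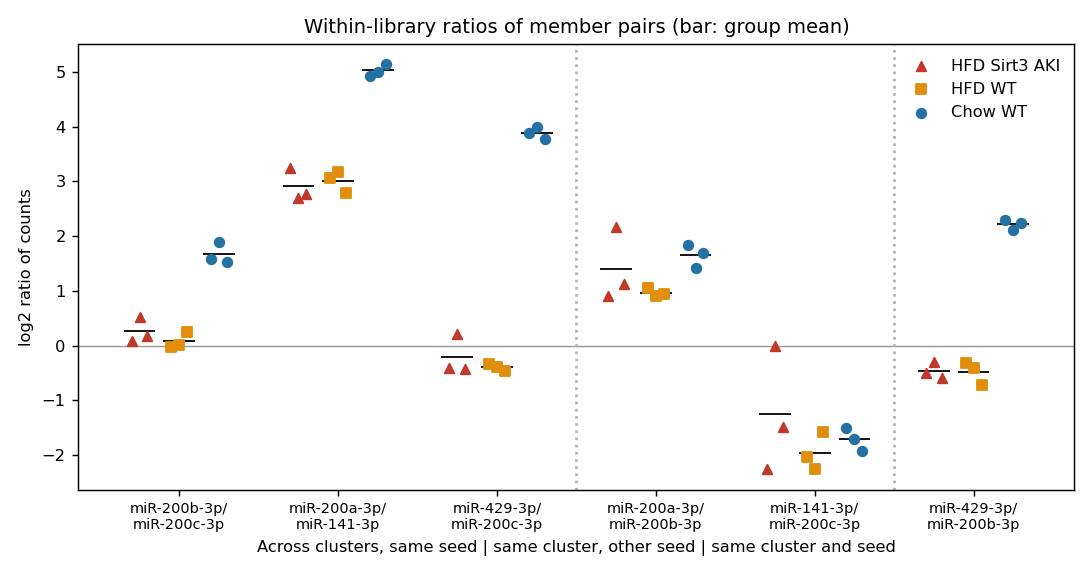
Log2 ratio of counts for 6 member pairs in every library, with a bar at each group mean (3 libraries per group). The chow WT libraries stand above all others for the 3 pairs across clusters at left and for miR-429-3p over miR-200b-3p at right (mean 2.22, against -0.46 in HFD Sirt3 AKI and -0.48 in HFD WT). The groups lie closer in the 2 middle pairs, though HFD WT lies wholly below chow WT for miR-200a-3p over miR-200b-3p.

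The second comparison asks what adipose Sirt3 overexpression was accompanied by on the high fat diet. All 5 members had higher means in HFD Sirt3 AKI than in HFD WT, but none passed edgeR's quasi-likelihood test after adjustment, where 8.94% of tested microRNAs changed, 1.45% upward and 7.49% downward. At an unadjusted p below 0.05 all 5 members were higher, against 12.8% of tested microRNAs. DESeq2's Wald test called 4 of 5 members, beside 61 of all microRNAs. With limma on TPM 2 of 5 members were called. Calls over all microRNAs ran from 1 to 61 over the 9 alternative fits of the full set of libraries or a group subset, limma among them. In 4 of 5 members, all but miR-141-3p, every HFD Sirt3 AKI library lay above every HFD WT library, a pattern of 8.70% of tested microRNAs.

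miR-200a-3p averaged 940 ± 693 CPM in HFD Sirt3 AKI and 421 ± 34.7 CPM in HFD WT (log2 fold change 1.16 with SE 0.39, adjusted p = 0.0835 by edgeR). miR-141-3p, which shares its seed, averaged 135 ± 115 CPM in HFD Sirt3 AKI and 52.9 ± 11.7 CPM in HFD WT (log2 fold change 1.35 with SE 0.50, adjusted p = 0.110 by edgeR). The other seed class had smaller values and smaller spreads. miR-429-3p averaged 226 ± 74.9 CPM in HFD Sirt3 AKI and 155 ± 11.6 CPM in HFD WT (log2 fold change 0.54 with SE 0.20, adjusted p = 0.108 by edgeR). miR-200b-3p averaged 306 ± 71.0 CPM in HFD Sirt3 AKI and 216 ± 25 CPM in HFD WT (log2 fold change 0.51 with SE 0.18, adjusted p = 0.108 by edgeR). The smallest value was that of miR-200c-3p, which averaged 252 ± 17.3 CPM in HFD Sirt3 AKI and 203 ± 14.0 CPM in HFD WT (log2 fold change 0.31 with SE 0.13, adjusted p = 0.172 by edgeR). The median was 0.54 over the members and -0.021 over all tested microRNAs, and by library totals the median of all moved by 0.29.

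These values rested in large part on replicate 2 of HFD Sirt3 AKI. Against the HFD WT mean, miR-200a-3p was at ratios of 1.10, 4.13 and 1.48 in the 3 libraries of HFD Sirt3 AKI, and miR-141-3p at 0.920, 5.03 and 1.71. The members of the other seed class stood out less in that library, with ratios of 1.14, 2.02 and 1.23 for miR-429-3p, 1.15, 1.79 and 1.33 for miR-200b-3p, and 1.15, 1.32 and 1.25 for miR-200c-3p. The same library was also high for some microRNAs of other tissues, chosen after the values were seen. The liver microRNA miR-122-5p was at ratios of 1.27, 5.81 and 2.51, the brain microRNA miR-9-5p at 0.460, 16.5 and 4.25, and the skin microRNA miR-203-3p at 1.07, 5.19 and 1.81. The part of these in the family's values was not tested.

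Without replicate 2 of HFD Sirt3 AKI, the log2 fold changes were 0.39 for miR-200a-3p, 0.40 for miR-141-3p, 0.28 for miR-429-3p, 0.34 for miR-200b-3p and 0.30 for miR-200c-3p, and none was called. Without replicate 1, 4 members were called: miR-141-3p at 1.76, miR-200a-3p at 1.49, miR-429-3p at 0.70 and miR-200b-3p at 0.65. Calls over all microRNAs rose there as well, to 102 from 37 with all 9 libraries. Replicates 2 and 3 of HFD Sirt3 AKI carry one batch label and the other 7 libraries carry another. Within the larger batch, which leaves 1 library of HFD Sirt3 AKI, assumed to vary like the other groups, the log2 fold changes were 0.28 for miR-200a-3p, 0.023 for miR-141-3p, 0.33 for miR-429-3p, 0.34 for miR-200b-3p and 0.34 for miR-200c-3p, and none passed. When the batch label entered the model they were 0.14 for miR-200a-3p, -0.12 for miR-141-3p, 0.19 for miR-429-3p, 0.20 for miR-200b-3p and 0.20 for miR-200c-3p.

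**Figure D5:**
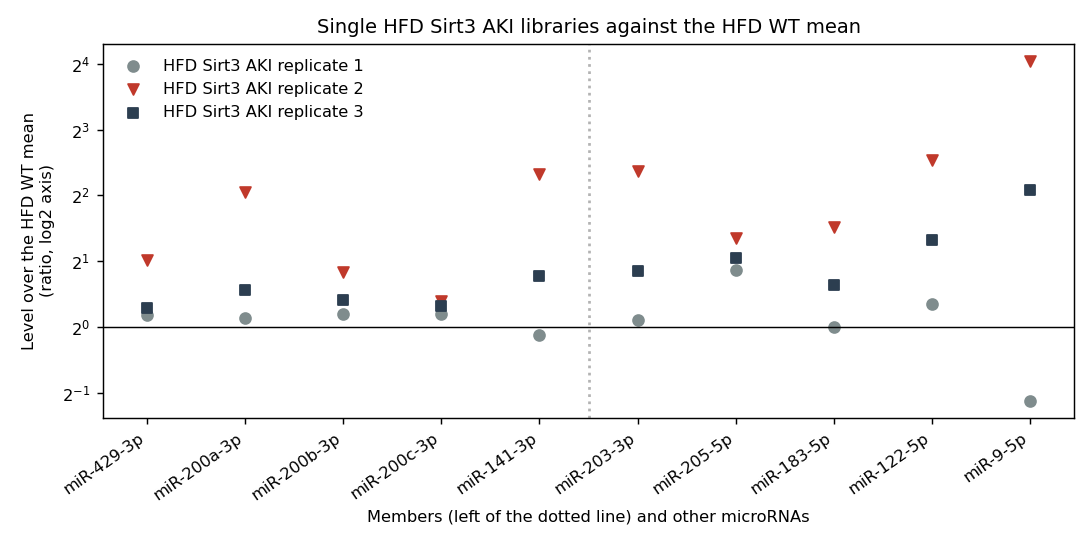
Level in each HFD Sirt3 AKI library over the HFD WT mean, as a ratio on a log2 axis, for the 5 members left of the dotted line and 5 other microRNAs right of it. Most of those 5 others were chosen after the values were seen. Replicate 2 is the highest of the 3 for each microRNA shown, at 4.13 for miR-200a-3p and 5.03 for miR-141-3p, and the libraries lie close together for miR-200c-3p.

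HFD Sirt3 AKI was also set against chow WT, a comparison that differs in both diet and genotype and shares its libraries with the others. The chromosome 4 members were lower in HFD Sirt3 AKI: 3 of 5 members fell, against 19.6% of tested microRNAs that fell and 39.9% that changed in either direction, and 4 of 5 had no overlap, against 26.3%. The log2 fold changes were -4.32 for miR-429-3p (SE 0.22, adjusted p = 4.54e-07 by edgeR), -1.70 for miR-200a-3p (SE 0.39, adjusted p = 0.00514) and -1.67 for miR-200b-3p (SE 0.19, adjusted p = 4.32e-05). The chromosome 6 members did not pass, at -0.27 for miR-200c-3p (SE 0.14, adjusted p = 0.142 by edgeR) and 0.54 for miR-141-3p (SE 0.52, adjusted p = 0.434). By library totals the median of all tested microRNAs moved by -0.41 here. Without replicate 2 of HFD Sirt3 AKI the log2 fold change of miR-141-3p turned to -0.28, and that of miR-200a-3p was -2.35.

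The 5p arms come from the opposite side of the same hairpins and offer a second reading of each locus. The Mir141 hairpin is shown because its 5p arm was the most abundant of them, with both arms in capitals, the 5p arm first (RefSeq, GRCm38.p6).
Mir141: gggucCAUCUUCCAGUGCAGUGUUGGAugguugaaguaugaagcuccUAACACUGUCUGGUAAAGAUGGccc

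miR-141-5p averaged 21.0 ± 6.59 CPM in HFD Sirt3 AKI, 26.3 ± 5.67 CPM in HFD WT and 37.6 ± 8.60 CPM in chow WT. miR-200b-5p averaged 10.8 ± 2.02 CPM in HFD Sirt3 AKI, 10.9 ± 3.28 CPM in HFD WT and 12.8 ± 2.81 CPM in chow WT. miR-200a-5p averaged 6.94 ± 1.93 CPM in HFD Sirt3 AKI, 3.94 ± 2.01 CPM in HFD WT and 11.1 ± 1.70 CPM in chow WT. All 3 were minor products beside their 3p partners, at 3 to 54 counts per library. None of the 3 passed edgeR's test in any comparison. For HFD WT over chow WT the log2 fold changes were -1.48 for miR-200a-5p (adjusted p = 0.0692), -0.52 for miR-141-5p (adjusted p = 0.260) and -0.25 for miR-200b-5p (adjusted p = 0.700). At an unadjusted p below 0.05, 1 of the 3 passed there, beside 45.4% of tested microRNAs. By library totals miR-200a-5p (-2.20, adjusted p = 0.0110) and miR-141-5p (-1.26, adjusted p = 0.0175) did pass there, and with limma on TPM both passed too. In HFD Sirt3 AKI over chow WT, miR-141-5p had a value of -0.85 (adjusted p = 0.0664 by edgeR), and it passed by library totals (-1.24, adjusted p = 0.0186), with limma on TPM (-1.24, adjusted p = 0.0122) and without replicate 2 of HFD Sirt3 AKI (-0.98, adjusted p = 0.0329). In that comparison miR-200a-5p and miR-141-5p were lower with no overlap, as were 26.3% of tested microRNAs. miR-200c-5p had 0 to 5 counts per library and was not tested, and miR-429-5p was not among the 1064 known microRNAs listed. The 5p arms therefore gave no second reading of the Mir429 hairpin and no test for that of Mir200c.

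The arms of a hairpin did not keep 1 ratio across libraries. Of the counts of both Mir141 arms, the 5p arm held 25.4, 9.69 and 16.4% in HFD Sirt3 AKI, 30.6, 41.2 and 28.6% in HFD WT, and 25.9, 34.0 and 26.5% in chow WT. In replicate 2 of HFD Sirt3 AKI, where miR-141-3p was at its highest, this was 54 counts against 503, a share with an exact 95% binomial interval of 7.37 to 12.5%. For Mir200b the 5p share was 3.59% ± 1.28 in HFD Sirt3 AKI, 4.75% ± 0.900 in HFD WT and 1.29% ± 0.195 in chow WT, and every chow WT library was below the other 6. The chow WT share rests on 14 counts of the 5p arm over 3 libraries. Such intervals treat each read as a separate molecule. They leave out the spread between libraries, and PCR copies counted as reads would make them too narrow.

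For other microRNAs with an epithelial pattern, calls in HFD WT over chow WT were about as frequent as over all tested microRNAs. In a list of 10 (the miR-183, miR-96 and miR-182 cluster, miR-203, miR-205, miR-31, miR-192, miR-194, miR-215 and miR-375), 3 rose and 1 fell, with a median log2 fold change of 0.10, beside 21.5% of all tested microRNAs that rose and 16.2% that fell, with a median of 0.15. miR-192-5p, abundant in kidney and gut, fell by 1.33 on the log2 scale (SE 0.17, adjusted p = 1.13e-04 by edgeR), and its relative miR-215-5p rose by 2.17 (SE 0.23, adjusted p = 3.14e-05 by edgeR). miR-205-5p, a skin and gland microRNA that also targets Zeb1, rose by 0.74 (SE 0.23, adjusted p = 0.0245 by edgeR), a call that was lost by library totals, where its value was 0.029. The third that rose was miR-375-3p, of pancreatic islets and gut, by 0.94 (SE 0.26, adjusted p = 0.0153 by edgeR), and by library totals it was 0.22 and not called. Calls were also lost without replicate 1 of chow WT or replicate 1 of HFD WT, for miR-205-5p at adjusted p = 0.0690 and 0.0786, and for miR-375-3p at adjusted p = 0.0657 and 0.0542. The call of miR-205-5p was lost without replicate 3 of chow WT (adjusted p = 0.0856) and that of miR-375-3p without replicate 2 of chow WT (adjusted p = 0.0657).

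In HFD Sirt3 AKI over HFD WT, 2 of these 10 rose and none fell, at a median of 0.96, beside 1.45% of all tested microRNAs that rose and 7.49% that fell, at a median of -0.021. These were miR-205-5p by 1.11 (SE 0.23, adjusted p = 0.0117 by edgeR) and miR-375-3p by 1.36 (SE 0.24, adjusted p = 0.00559 by edgeR). When the batch label entered the model both calls were lost, at 0.87 (adjusted p = 0.199) for miR-205-5p and 1.43 (adjusted p = 0.0531) for miR-375-3p. The call of miR-205-5p was also lost without replicate 2 of HFD WT (adjusted p = 0.0609) and without replicate 3 of HFD WT (adjusted p = 0.0520). The summed level of the 10 was 10967, 20452 and 13281 CPM in HFD Sirt3 AKI, 8705, 7917 and 7621 CPM in HFD WT, and 11169, 11032 and 10504 CPM in chow WT. This sum was highest of all 9 libraries in replicate 2 of HFD Sirt3 AKI, and HFD WT was the lowest group. That HFD WT was below chow WT rests on miR-192-5p, at means of 2869 CPM in HFD WT and 7194 CPM in chow WT. The next largest members went the other way. miR-205-5p averaged 2599 CPM in HFD WT and 1553 CPM in chow WT, and miR-203-3p 1171 CPM and 989 CPM. The sum is therefore no parallel to the summed family. In HFD Sirt3 AKI over chow WT, 5 of the 10 rose and 1 fell, beside 20.3% of all tested microRNAs that rose and 19.6% that fell.

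Among 8 microRNAs of mesenchymal and stromal cells, 3 rose and 2 fell in HFD WT over chow WT, beside 21.5% and 16.2% of all tested microRNAs, and the list's median of 0.15 was that of all. miR-145a-5p of smooth muscle fell by 2.51 on the log2 scale (SE 0.24, adjusted p = 1.52e-05 by edgeR), and miR-214-3p, known from fibroblasts, rose by 1.23 (SE 0.19, adjusted p = 4.82e-04 by edgeR). miR-21a-5p rose by 0.79 (SE 0.11, adjusted p = 2.83e-04 by edgeR), a call lost by library totals, where its value was 0.053. miR-199a-3p rose by 0.91 (SE 0.32, adjusted p = 0.0474 by edgeR) and lost its call without any 1 of the 6 libraries compared and by library totals, where its value was 0.18. miR-100-5p fell by 0.48 (SE 0.15, adjusted p = 0.0294 by edgeR) and lost its call without any 1 of the chow WT libraries, without replicate 1 or 3 of HFD WT, and without replicate 3 of HFD Sirt3 AKI. Between HFD Sirt3 AKI and HFD WT none of the 8 passed, and their median was 0.35. A list of 6 further microRNAs known to act on the epithelial-to-mesenchymal transition had 5 tested members. In HFD WT over chow WT 2 of these fell and none rose, beside the shares of all tested microRNAs given above. The median of -1.65 was the value of miR-34b-5p, which did not pass (adjusted p = 0.149 by edgeR). It was scarce, at means of 2.35 CPM in HFD WT and 7.36 CPM in chow WT. The 2 that fell were miR-155-5p, an inflammatory regulator, by 1.71 (SE 0.14, adjusted p = 8.11e-06 by edgeR) and miR-34c-5p, a member of the p53-induced miR-34 family, by 2.15 (SE 0.57, adjusted p = 0.0122 by edgeR). The call of miR-34c-5p was lost without replicate 1 of HFD WT, at -1.95 (adjusted p = 0.0512). None of these 5 passed between HFD Sirt3 AKI and HFD WT. Markers of other cells moved as well. In HFD WT over chow WT, 4 of 7 erythroid microRNAs rose (miR-16-5p, miR-25-3p, miR-92a-3p and miR-486a-5p) and 1 fell (miR-144-5p). Of 4 leukocyte and platelet microRNAs, 3 rose (miR-142a-3p, miR-150-5p and miR-223-3p). Over all tested microRNAs 21.5% rose and 16.2% fell. The leukocyte and platelet list summed to 25699 to 27942 CPM in HFD WT and 17493 to 18079 CPM in chow WT. As a share of counts it was 2.11% ± 0.0616 in HFD WT and 2.33% ± 0.0863 in chow WT. Its direction therefore depends on the scaling. In HFD Sirt3 AKI over HFD WT, 3 erythroid microRNAs (miR-144-3p, miR-144-5p and miR-451a) and miR-142a-3p fell, the liver microRNA miR-122-5p rose, and neither of 2 brain microRNAs passed. Over all tested microRNAs 7.49% fell and 1.45% rose there. The calls of miR-451a (adjusted p = 0.0488 by edgeR) and miR-122-5p (adjusted p = 0.0412 by edgeR) were near the threshold. The part of these markers in the values of the family was not tested.

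The profile of each cluster over the 9 libraries was compared with those of 398 other tested microRNAs, by Pearson's r of log2(CPM + 1) with the mean of the cluster's members. Most like the chromosome 4 cluster were miR-1291 (r = 0.987), miR-192-5p (0.979), miR-712-5p (0.976), miR-6240 (0.975) and miR-187-3p (0.975). These points share their libraries, and chow WT stands apart in the cluster, so r mainly reads that gap. miR-192-5p averaged 3966 CPM in HFD Sirt3 AKI, 2869 CPM in HFD WT and 7194 CPM in chow WT. In contrast, miR-1291 and miR-712-5p had no count in HFD WT and averaged 9.35 and 18.4 CPM in chow WT. Those are the shallowest libraries, so the r of these 2 microRNAs rests on few reads. Most like the chromosome 6 cluster were miR-9-3p (r = 0.938), miR-34c-5p (0.882), miR-9-5p (0.874), miR-143-5p (0.868) and miR-449a-5p (0.867). That mean follows miR-141-3p, with r of 0.974, more than miR-200c-3p, with r of 0.733, which is below these 5. Its first place, miR-9-3p, and miR-9-5p come from the same precursor family known from brain, and miR-9-5p was at 105, 3754 and 968 CPM in the 3 HFD Sirt3 AKI libraries, with replicate 2 again the highest.

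Within the family, r over the 9 libraries was 0.98 between miR-200b-3p and miR-429-3p and 0.97 between miR-200a-3p and miR-200b-3p. miR-200c-3p was closer to the chromosome 4 members, with r of 0.93 for miR-200a-3p, 0.92 for miR-200b-3p and 0.87 for miR-429-3p, than to its chromosome 6 neighbour miR-141-3p, with r of 0.56. For miR-141-3p the other values were 0.63 with miR-200a-3p, 0.44 with miR-200b-3p and 0.31 with miR-429-3p. As with the profiles, these values share the libraries and their depth and are given as a description.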

How the data were processed

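Small RNA of serum vesicles was counted per microRNA by the authors. The deposited whole-number counts cover 1064 known and 105 predicted microRNAs, and the deposited TPM values equal those counts relative to each library's total, with no length term. Per the submitters' processing notes, Bowtie 0.12.2 and the build mm8 were named, but not what they were used for. For trimming, the microRNA reference and the counting program, the method is not given in the sources used here. Adapter ligation favours some ends, so levels of different microRNAs compare only roughly.

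The counts entered edgeR 4.0.16 under R 4.3.3 (filterByExpr, minimum count 10; trimmed mean of M values; quasi-likelihood fit of group means over all 9 libraries), leaving 414 microRNAs. The SE of a log2 fold change was its size divided by the square root of the F statistic. Alternatives used library totals, DESeq2 1.42.0, no filter, limma 3.58.1 on log2(TPM + 1), only the groups compared, the batch label, the larger batch, a replicate block, and each library left out. The edgeR, DESeq2 and limma steps were tested on simulated data. Ratios within a library used exact permutation tests that went through all assignments of libraries to groups (two-sided, Python 3.11.15). Exact binomial intervals came from scipy 1.17.1. Genome positions are those of GENCODE annotation for GRCm38, and 5 of 5 members matched RefSeq.

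The members and lists were chosen with earlier results of these data known. Named besides the members were their 5p arms, the 5 microRNAs most like each cluster, and list members that passed in HFD WT over chow WT or HFD Sirt3 AKI over HFD WT. Of the erythroid, leukocyte and platelet, liver and brain lists these are named without fold changes, and in HFD Sirt3 AKI over chow WT lists are given by counts only, both chosen after the values were seen. So was the choice of miR-122-5p, miR-9-5p, miR-203-3p, miR-183-5p, miR-375-3p and miR-215-5p for single libraries.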

Additional observations from a re-analysis of the deposited data

How the results depend on the processing

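Of 270 values, the 15 member log2 fold changes under 18 alternatives each, 241 kept their direction and their side of the threshold, 23 passed it in addition, 1 no longer passed and 5 changed sign. The members called in HFD Sirt3 AKI over HFD WT, 0 with edgeR and trimmed means, were 3 by library totals, 4 with DESeq2's Wald test, 3 without a filter, 2 with limma on TPM, and 0 to 4 with each library left out. Of all microRNAs, 37 were called there, against 24 with DESeq2's size factors, 61 with DESeq2's Wald test, 3 with only those 2 groups, 1 with the batch term, 23 in the larger batch and 13 to 102 with each library left out (102 without replicate 1 of HFD Sirt3 AKI). The upward and downward calls in HFD WT over chow WT were 89 and 67, and by library totals 20 and 143; in HFD Sirt3 AKI over HFD WT they were 6 and 31, and by library totals 36 and 11.

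Several values changed sign. miR-205-5p in HFD WT over chow WT was -0.040 with limma. In HFD Sirt3 AKI over HFD WT, miR-141-3p was -0.12 with the batch term, miR-141-5p 0.013 by library totals, and miR-200b-5p, -0.0042 in the edgeR fit, was 0.29 by library totals, 0.098 with DESeq2's size factors, 0.099 with its Wald test, 0.023 without a filter, 0.28 with limma, 0.12 with 2 groups, 0.13 with the batch term, 0.27 in the larger batch and -0.17 to 0.27 with each library left out. In HFD Sirt3 AKI over chow WT, miR-141-3p was -0.22 with limma, -0.93 with the batch term, -0.73 in the larger batch and -0.28 to 0.96 with each library left out, and miR-200b-5p 0.076 in the larger batch and -0.37 to 0.044 with each library left out. The cause was not tested.

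In the larger batch, without 2 libraries of HFD Sirt3 AKI, the ratio differences of HFD WT minus chow WT were unchanged, because they rest on the same libraries. They were -1.59 for miR-200b-3p/miR-200c-3p, -4.28 for miR-429-3p/miR-200c-3p, -2.69 for miR-429-3p/miR-200b-3p and -0.68 for miR-200a-3p/miR-200b-3p. An exact p with 1 library of HFD Sirt3 AKI cannot decide on these gaps, so none is given. With each library left out, miR-200a-3p/miR-200b-3p ran from -0.80 to -0.59 and miR-141-3p/miR-200c-3p from -0.43 to -0.095.

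Replicate numbers are only numbers here: 2 of 9 same-numbered pairs of libraries correlated above 0.1 in their deviations, and 3 of 9 libraries correlated best with their own number. With the number as a replicate block, the members called were 4 in HFD WT over chow WT, 0 in HFD Sirt3 AKI over HFD WT and 3 in HFD Sirt3 AKI over chow WT, as without it, 31 microRNAs were called in HFD Sirt3 AKI over HFD WT, and miR-200b-5p there was 0.0092. The chow WT libraries are the shallowest, and miR-141-3p rests there on 25 to 40 counts.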
